A study of Mus musculus with 40 samples.

Results

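The genes described here are 10 members of the MHC class I antigen processing pathway (Tap1, Tap2, Tapbp, B2m, Psmb8, Psmb9, Psmb10, Nlrc5, H2-T23 and Erap1), measured by mRNA sequencing in the lungs of mice painted with N-nitroso-tris-chloroethylurea (NTCU), a carcinogen that produces squamous lesions of the airway. They were taken by symbol from a table of 37310 genes, and all 10 were among the 15626 genes expressed highly enough to be tested. Of 40 samples collected from A/J and SWR/J mice, the 25 that passed the study's quality control were used: 13 were bronchial epithelium cut out by laser capture microdissection (LCM) and 12 were whole lung sections. Histology was normal in 7 samples (no NTCU; 3 LCM and 4 whole lung; 3 A/J and 4 SWR/J), mild dysplasia in 5 (15 µmol; 3 LCM and 2 whole lung; all SWR/J) and high-grade in 13 (14 to 50 µmol; 7 LCM and 6 whole lung; 5 A/J and 8 SWR/J). The high-grade group joined 9 samples of moderate to severe dysplasia, 2 of severe dysplasia, 1 carcinoma in situ and 1 squamous cell carcinoma (SCC).

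The mice were female. A whole lung section carries a single grade label, so most of its RNA could come from tissue of another grade. NTCU dose, grade and strain move together, since no A/J sample was mildly dysplastic. The labels do not say which samples came from the same animal, so each p-value below measures the spread between these samples. The LCM sample 7c is labelled mild dysplasia but described as normal, and the LCM sample SM1 is labelled normal but described as mild dysplasia. Both were grouped by their label. The 25 libraries held from 2667387 to 16534728 expected counts assigned to genes. Markers of lung epithelium were present throughout, with club cell secretory genes summing to at least 541 CPM (counts scaled to library size) in every group and source. Ahead of any result on antigen processing, 1 feature of the libraries has to be stated: RNA of thymocyte genes was abundant in some of them. Rag1, Dntt and Ptcra, which developing T cells use to build their receptors, summed to more than 100 CPM in 4 of 7 normal samples and 4 of 13 high-grade samples, LCM samples included, and in 0 of 5 mild samples.

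MHC class I molecules carry peptides from inside the cell to its surface, where CD8 T cells inspect them. Proteasomes cut proteins into peptides, and inflammatory signals exchange the standard catalytic subunits for the immunosubunits Psmb8, Psmb9 and Psmb10. The transporter Tap1-Tap2 moves the peptides into the endoplasmic reticulum, Erap1 trims them, Tapbp (tapasin) holds an empty class I molecule beside the transporter, and B2m (beta-2-microglobulin) pairs with every classical heavy chain. Nlrc5 is the transactivator of class I genes, and H2-T23 encodes Qa-1, a nonclassical class I molecule read by receptors on natural killer and CD8 T cells. Interferon gamma raises most of this group. In airway epithelium the pathway is active at low level, while leukocytes express it strongly.

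On mouse build mm9, 4 members lie side by side in the MHC class II region. The block of Psmb9, Tap1, Psmb8 and Tap2 spans 34.335 kb at chr17:34318932-34353266. Tapbp (chr17:34052844-34066235, plus strand) and H2-T23 (chr17:36166718-36169800, minus strand) flank it on the same chromosome. B2m lies at chr2:121973422-121978819, Nlrc5 at chr8:96996663-97051172 and Erap1 at chr13:74777320-74829983, all on the plus strand, and Psmb10 lies at chr8:108459628-108462292 on the minus strand. The annotation of this build lists the Nlrc5 entry as a long noncoding RNA and the other members as protein-coding. Psmb9 and Tap1 are transcribed away from a common start region and their annotated exons overlap by 212 bases. The libraries did not keep strand, so reads in that overlap cannot be told apart between the genes. Annotated genes on the opposite strand also overlap Tap2, B2m, Psmb8, Psmb10 and H2-T23, and how far their exons overlap was not measured. Psmb9 has a pair of identifiers in the table whose counts were summed, because the second held from 1.23% to 90.5% of the sum depending on the sample.

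Promoter windows from RefSeq (GRCm38.p6; 250 bases before the start site to 50 after) were found for 8 of the 10 members, without Tap2 and Nlrc5. The windows of Tap1 (whose start region is shared with Psmb9) and B2m are printed as those of members that were lower in mild dysplasia, and that of Erap1 as the member with the smallest difference there. Capitals mark matches on either strand to 4 short motifs: a pair of GAAA with any 2 bases between them (the interferon-stimulated response element, present in 3.44% of all 32851 windows of this length), TTCNNNGAA (gamma-activated site, 8.3%), CCAAT (37.4%) and TGACG (the core of the X2 box of class I and class II promoters, 20.8%).
Tap1, chr17:34187306-34187605, plus strand: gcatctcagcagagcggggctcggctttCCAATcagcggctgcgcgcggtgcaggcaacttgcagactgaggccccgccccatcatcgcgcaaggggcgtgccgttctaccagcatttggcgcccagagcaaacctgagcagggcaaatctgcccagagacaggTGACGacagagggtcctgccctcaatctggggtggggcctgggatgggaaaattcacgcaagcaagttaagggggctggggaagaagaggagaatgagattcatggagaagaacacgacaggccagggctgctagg
B2m, chr2:122147437-122147736, plus strand: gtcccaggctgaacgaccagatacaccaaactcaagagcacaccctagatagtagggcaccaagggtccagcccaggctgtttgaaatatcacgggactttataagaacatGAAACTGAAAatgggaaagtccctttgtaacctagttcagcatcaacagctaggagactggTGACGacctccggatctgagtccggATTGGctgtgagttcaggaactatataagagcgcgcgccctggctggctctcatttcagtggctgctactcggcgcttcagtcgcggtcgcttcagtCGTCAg
Erap1, chr13:74639603-74639902, plus strand: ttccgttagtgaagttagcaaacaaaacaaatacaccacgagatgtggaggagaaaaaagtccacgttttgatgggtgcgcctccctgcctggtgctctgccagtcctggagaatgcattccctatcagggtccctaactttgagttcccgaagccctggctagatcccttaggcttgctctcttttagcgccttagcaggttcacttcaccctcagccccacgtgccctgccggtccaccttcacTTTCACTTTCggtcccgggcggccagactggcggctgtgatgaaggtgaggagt
The Tap1 window shares 275 bases with that of Psmb9, which runs the other way. B2m held an interferon-stimulated element 139 bases before its start site, an X2 core 78 bases before it and a CCAAT box on the opposite strand 53 bases before it. H2-T23 held the interferon element on the opposite strand, beginning 124 bases before its start site. Erap1 also held it on the opposite strand, in a match that began 4 bases before the start site and ran across it. Psmb8 held the gamma-activated sequence 97 bases before its start, Tapbp held only CCAAT, and Psmb10 held none of the 4. These matches describe letters in a window, not bound sites.

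Levels are given as log2 CPM, scaled by TMM with a prior count of 2. The length of a gene joined the exons of all its annotated transcripts, 3659 bases over 6 transcripts for Psmb9 and 1270 over 1 for Psmb10. The order of the members per kilobase thus depends on the annotation and is approximate. Per kilobase of exon, B2m was the most abundant member, with a mean level of 10.01 ± 0.68 (SD, n = 25), and it exceeded the next member in 25 of 25 samples. Psmb10 (5.81), Tapbp (5.55) and Psmb8 (5.23) followed, and Psmb10 exceeded Tapbp in only 14 of 25 samples. Tap2 (4.36), Psmb9 (3.74), H2-T23 (3.57), Tap1 (3.48) and Erap1 (3.03) came next. The means of Psmb9, H2-T23 and Tap1 lay closer together than the SD of any of them. Nlrc5 was the least abundant at 0.83 ± 1.12, below Erap1 in 25 of 25 samples, and rested on as few as 8 expected counts in a sample.

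**Figure D1:**
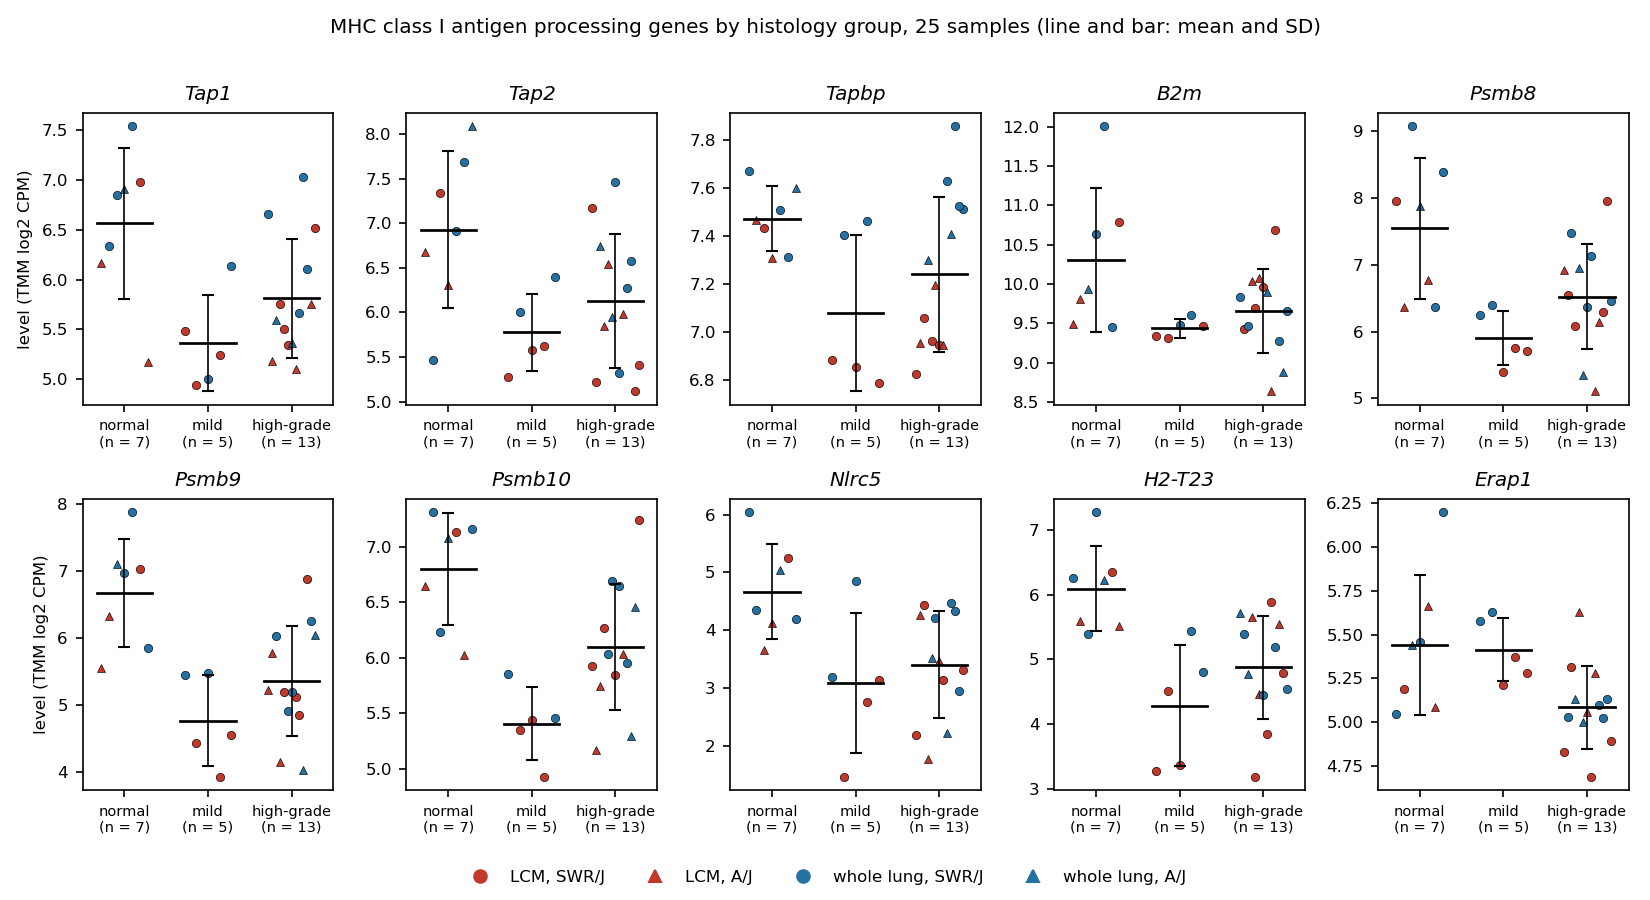
Level of each of the 10 genes (log2 CPM, vertical axes) in the 25 samples, grouped by histology, with each point a sample (red for LCM, blue for whole lung, circles for SWR/J, triangles for A/J) and the line and bar the group mean and SD. Psmb9 and Psmb10 have no mild dysplasia sample within the range of the normal samples, while all 5 mild Erap1 values lie inside it.

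The immunosubunits, the transporter, B2m, Nlrc5 and H2-T23 were lower in mild dysplasia than in normal samples. In this comparison 8 of 10 members were lower at an adjusted p under 0.05 (edgeR quasi-likelihood test with strain, source and the transcript integrity number, TIN, as covariates) and none was higher, beside 7.24% of all genes tested that were lower and 12.5% that differed either way. The median difference of the members was -1.61 on the log2 scale, and that of all genes was -0.02. Tapbp and Erap1 were the 2 members that did not pass.

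Among the immunosubunits, Psmb9, which replaces the caspase-like subunit, gave levels of 4.44, 4.56 and 3.93 in the mild LCM samples and 5.45 and 5.49 in the mild whole lung samples. In the normal samples it ran from 5.55 to 7.89 with a median of 6.97. All 5 mild samples lay below the lowest normal sample. The fitted difference was -2.30 (SE 0.45, 95% interval -3.23 to -1.36, adjusted p = 0.0126), a level 4.91-fold lower. Psmb10, which replaces the trypsin-like subunit, showed the same separation, with mild LCM levels of 5.44, 4.93 and 5.35 and whole lung levels of 5.46 and 5.85. Its normal levels ran from 6.02 to 7.32 with a median of 7.08. The difference was -1.68 (SE 0.30, adjusted p = 0.0126). Psmb8, which replaces the chymotrypsin-like subunit, stood at 5.76, 5.40 and 5.72 in mild LCM samples and at 6.40 and 6.25 in mild whole lung samples. Its normal levels ran from 6.37 to 9.08 with a median of 7.89, so 4 of 5 mild samples fell below all normal samples. The difference was -2.21 (SE 0.44, adjusted p = 0.0126).

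The transporter genes overlapped more between the groups. Tap1 gave 5.49, 4.94 and 5.25 in mild LCM samples and 6.13 and 4.999 in mild whole lung samples, against 5.18 to 7.54 (median 6.84) in normal samples. Only 2 of 5 mild samples lay below the lowest normal sample, and the fitted difference was -1.53 (SE 0.31, adjusted p = 0.0126). Tap2 gave 5.58, 5.28 and 5.63 in mild LCM samples and 6.39 and 6.0 in mild whole lung samples, against 5.47 to 8.09 (median 6.91) in normal samples. It fell by 1.36 (SE 0.41, adjusted p = 0.0354), with 1 of 5 mild samples outside the normal range. B2m spanned only 9.31 to 9.60 over the 5 mild samples and 9.45 to 12.01 over the normal ones, a difference of -1.40 (SE 0.38, adjusted p = 0.0279). The B2m value of 12.01 came from the whole lung sample labelled 72, which was the highest of all 25 samples for 8 of the 10 genes. Without that sample the B2m difference was -0.90 and did not pass (adjusted p = 0.0883).

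Nlrc5 and H2-T23 fell by about as much as the immunosubunits. Nlrc5 gave 1.46, 3.14 and 2.76 in mild LCM samples and 4.85 and 3.19 in mild whole lung samples, with normal samples from 3.65 to 6.05 (median 4.34). The difference was -1.99 (SE 0.51, adjusted p = 0.0236), and 4 of 5 mild samples lay under the normal range. H2-T23 gave 3.37, 3.28 and 4.52 in mild LCM samples and 5.43 and 4.80 in mild whole lung samples, with normal samples from 5.40 to 7.28 (median 6.23). The difference was -2.06 (SE 0.36, adjusted p = 0.0126). For both genes the whole lung sample labelled 73 was the mild sample inside the normal range.

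Peptide trimming and tapasin stood apart. Erap1 gave 5.37, 5.21 and 5.28 in mild LCM samples and 5.58 and 5.63 in mild whole lung samples, within a normal range of 5.05 to 6.20 (median 5.44). Its difference was -0.10 (SE 0.18, 95% interval -0.47 to 0.28, adjusted p = 0.735), an interval that leaves room for a small change in either direction. Tapbp differed by -0.34 (SE 0.15, adjusted p = 0.126). Its 3 mild LCM samples (6.88, 6.79 and 6.85) lay below every normal sample, and its 2 mild whole lung samples (7.46 and 7.40) lay among them.

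**Figure D2:**
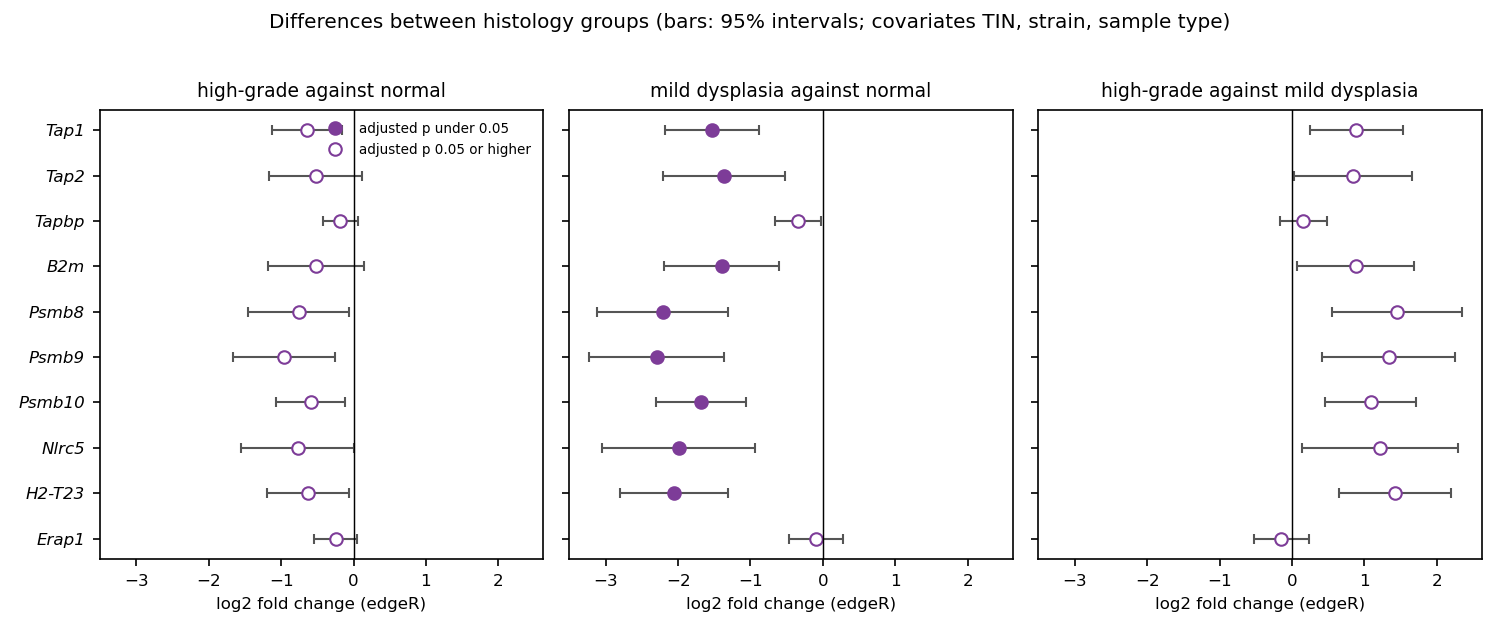
Fitted difference in level (log2, horizontal axis) with its 95% interval for each gene, in panels for high-grade against normal, mild dysplasia against normal and high-grade against mild dysplasia. In mild dysplasia 8 intervals belong to genes that passed the adjusted threshold, in high-grade lesions all 10 estimates lie below 0 without passing, and against mild dysplasia 9 lie above 0.

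The lower levels in mild dysplasia came with other levels of cell type markers, and the calls moved with the model. The summed thymocyte markers ran from 8.84 to 1819 CPM in normal samples, from 0 to 1.67 CPM in mild samples, where Ptcra was at 0 in all 5, and from 0 to 1120 CPM in high-grade samples. The 5 T cell markers summed to 88.7 to 3114 CPM, 12.3 to 135 CPM and 4.41 to 1946 CPM in the same order. In the same fit 5 of 5 were lower in mild dysplasia, beside 7.24% of all genes that were. The 4 general leukocyte markers summed to 231 to 2488 CPM, 116 to 723 CPM and 77.3 to 1026 CPM. Of these, Cd52 was lower in mild dysplasia (adjusted p = 0.019), while Ptprc (0.0511), Laptm5 (0.0546) and Cd53 (0.0812) did not pass. Of the natural killer cell markers only Nkg7 passed (adjusted p = 0.0279), and no B cell, macrophage or dendritic cell marker did. Over the 25 samples the mean z-score of the members rose with the thymocyte markers (r = 0.69, markers as log2 of CPM + 1). For single members r ran from 0.25 for Erap1 and Tapbp to 0.79 for Tap2. Sample 72 had the highest mean z-score, 2.04, at 8.84 CPM of the thymocyte markers. That is a single sample, and its value is above the highest mild value of 1.67 CPM. Sample 72 also held 994 CPM of the T cell markers and 557 CPM of Ptprc, the pan-leukocyte phosphatase CD45. Of the 3 fibroblast markers, Col3a1 (1.87, adjusted p = 0.0213) and Pdgfra (1.39, adjusted p = 0.0355) were higher in mild dysplasia, beside 5.22% of all genes that were. In such bulk samples, fewer cells of a type and less RNA per cell cannot be told apart, and the part of these cells in the lower member levels was not tested beyond the following fits.

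With the level of Ptprc as a further covariate, 4 of 10 members were still lower (Psmb8, Psmb9, Psmb10 and H2-T23), and 377 of all 15626 genes differed. With the thymocyte marker level as a covariate, 2 were, Psmb10 at -1.11 (adjusted p = 0.0458) and H2-T23 at -1.65 (adjusted p = 0.0371), and 257 genes differed in all. Without the 8 samples over 100 CPM of thymocyte markers, 0 members and 0 genes in all passed, in a fit with 3 normal samples. Those 3 (SM1, 71 and 72) still held 88.2, 19.5 and 8.84 CPM of the markers, above the highest mild value of 1.67 CPM. The groups thus still differed in these markers in that fit. There the differences of Psmb8 (-2.27), Psmb9 (-2.41), Psmb10 (-1.62) and H2-T23 (-2.03) stayed close to those with all samples (adjusted p = 0.0663 for each), whereas that of Tap2 was -0.63. Within LCM samples alone and within whole lung samples alone 0 members passed, and 0 genes of all tested did. Psmb9 differed by -2.34 within LCM and by -2.54 within whole lung, and 9 and 10 of the 10 members were negative. Without the strain and source covariates 0 members passed, with Psmb9 at -1.99 (adjusted p = 0.0826).

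**Figure D3:**
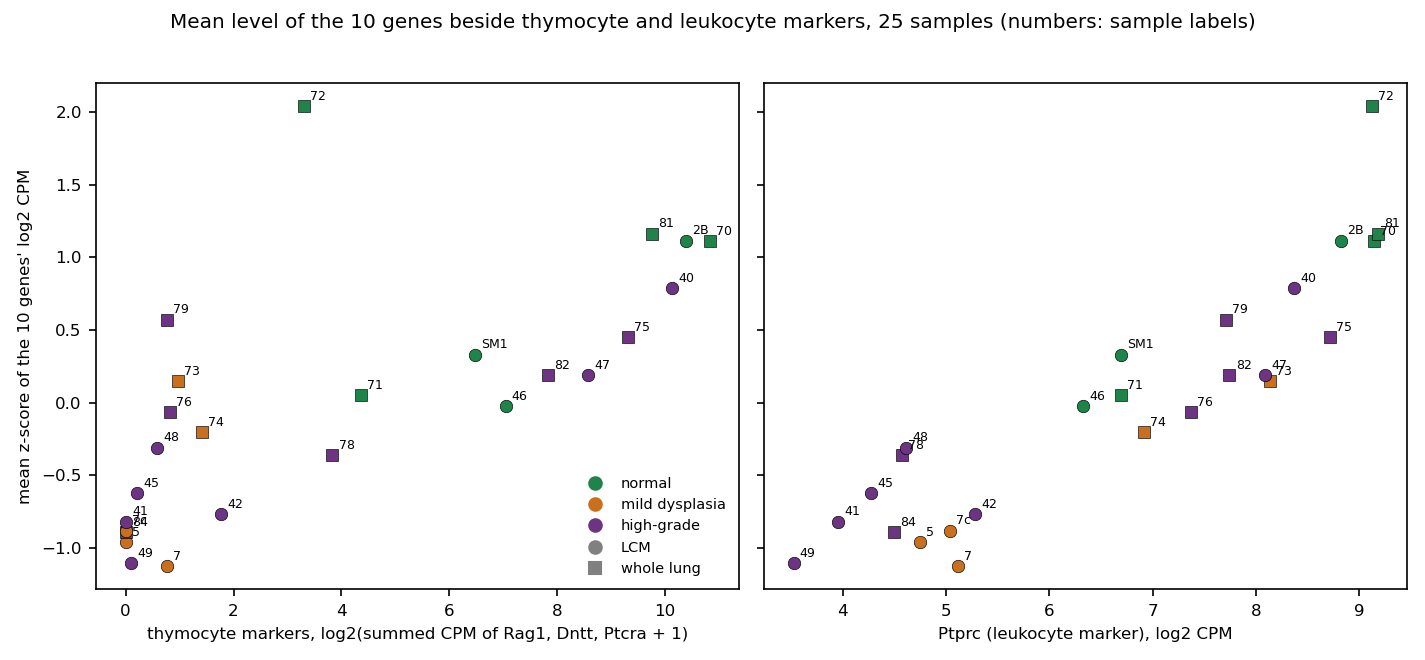
Mean z-score of the 10 genes in each of the 25 samples (vertical axis) against summed thymocyte markers (left, log2 of CPM + 1) and against the leukocyte gene Ptprc (right, log2 CPM), coloured by histology, with circles for LCM and squares for whole lung. The score rises with the thymocyte markers over the 25 samples (r = 0.69), and the mild samples sit at the low end of the thymocyte axis. Sample 72 is highest, at 8.84 CPM of these markers.

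In high-grade lesions all 10 members had lower estimates than in normal samples, as did 51.3% of all genes, and 0 of 10 passed, with DESeq2 as with edgeR, beside 0.0192% of all genes (3 genes). At an unadjusted p under 0.05, 5 of 10 members were lower, beside 3.6% of all genes that were lower and 9.15% that differed either way. The member median was -0.61 and the median of all genes -0.01. Psmb9 ran from 4.03 to 6.89 (median 5.21) over the 13 high-grade samples, all of them below the normal median, and differed by -0.96 (SE 0.34, unadjusted p = 0.00976, adjusted p = 0.438). H2-T23 ran from 3.18 to 5.89 (median 4.79), also below the normal median in 13 of 13 samples, and differed by -0.63 (SE 0.27, adjusted p = 0.513). Tap1 ran from 5.10 to 7.02 (median 5.66) and differed by -0.65 (SE 0.23, adjusted p = 0.445). The other members gave -0.77 for Nlrc5, -0.76 for Psmb8, -0.59 for Psmb10, -0.52 for both Tap2 and B2m, -0.25 for Erap1 (5.09 ± 0.24, n = 13, against 5.44 ± 0.40, n = 7) and -0.19 for Tapbp. Tap2 gave -0.18 without the normal whole lung sample labelled 81, and B2m gave -0.31 without sample 72.

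The 2 most advanced lesions had the lowest B2m levels of all 25 samples, 8.64 in the SCC and 8.88 in the carcinoma in situ. Psmb8 was also lowest in them, at 5.11 and 5.36, and Nlrc5 stood at 1.77 and 2.22. The SCC was an LCM sample and the carcinoma in situ a whole lung section, both from A/J mice. Their Ptprc levels, 3.53 and 4.50 log2 CPM, were among the low ones, and the summed T cell markers were 4.41 and 7.53 CPM. Each grade is 1 sample, so these values have no replicate check. Over grade as a rank, the members changed by -0.07 to -0.46 per step, and 0 of 10 passed, beside 0.262% of all genes, with 6 of 10 at an unadjusted p under 0.05 beside 13.7%.

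High-grade samples stood between mild and normal ones for most members, with overlap. Of the 5 mild samples, 3 lay below the high-grade median for Psmb9 and H2-T23, and 5 did for Psmb8 and Psmb10. The plain medians of H2-T23 were 74.7 CPM in normal, 22.7 CPM in mild and 27.4 CPM in high-grade samples. By these medians high-grade H2-T23 lay nearer to mild than the fitted estimates place it. Against mild dysplasia, 9 of 10 estimates were positive (49.1% of all genes were negative) and 0 passed, beside 0.326% of all genes. At an unadjusted p under 0.05, 8 of 10 were higher, beside 12.3% of genes that were higher. The estimates nearest to the threshold were those of H2-T23 (1.42, SE 0.37, adjusted p = 0.0653), Psmb10 (1.09, SE 0.30, adjusted p = 0.072) and Psmb8 (1.45, SE 0.43, adjusted p = 0.0812). Psmb9 followed at 1.33 (SE 0.45, adjusted p = 0.0996), and Erap1 was the negative one at -0.15. The mild samples are shared by this comparison and the one with normal samples, so low mild values enter both. DESeq2 called 4 members higher here (Psmb8, Psmb9, Psmb10 and H2-T23), among 1380 genes called in either direction where edgeR called 51. Without the high-grade whole lung sample labelled 76, edgeR called 3 members (Psmb8, Psmb10 and H2-T23) among 1148 genes.

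Between LCM and whole lung, Tapbp was the member that passed. It averaged 7.05 ± 0.23 (SD, n = 13) in LCM samples and 7.51 ± 0.16 (n = 12) in whole lung samples. The LCM samples ran from 6.79 to 7.47 and the whole lung samples from 7.30 to 7.86. The fitted difference was -0.44 (SE 0.10, adjusted p = 0.00655), 1 of 10 members, beside 14.6% of all genes that differed and 8.93% that were lower, so the count of members is near the background. At an unadjusted p under 0.05, 3 of 10 members differed, beside 30.4% of all genes. The gap was small in normal tissue, 7.40 in LCM against 7.52 in whole lung, and wider in mild (6.84 against 7.43) and high-grade (6.98 against 7.54) tissue. The difference of that gap between high-grade and normal samples was -0.27 (95% interval -0.66 to 0.12, adjusted p = 0.785). Without the 8 samples marked by thymocyte genes Tapbp did not pass. B2m gave 0.05 (SE 0.25), and the remaining 8 members gave -0.11 to -0.52 without passing.

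Between the strains 0 of 10 members differed, beside 0.992% of all genes, and all 10 estimates were lower in A/J than in SWR/J, as were 48.7% of all genes. At an unadjusted p under 0.05, 7 of 10 did, beside 17.5% of all genes. Nlrc5 (-1.26), Psmb8 (-1.24), B2m (-0.998), Psmb9 (-0.98) and Tap1 (-0.93, adjusted p = 0.108) had the estimates furthest from 0. The strains carry other H2 haplotypes than the reference mouse, and the members on chr17 lie in that region. What read mapping adds to their strain estimates was not tested. For Tap2 and H2-T23 the plain means were higher in A/J (6.52 against 6.17, and 5.43 against 4.94), opposite to the fitted estimates of -0.44 and -0.73, and both estimates changed sign without the TIN covariate. DESeq2 called Tap1 and Psmb8 lower in A/J, among 961 genes called in either direction. The high-grade difference itself was compared between sources and between strains, and 0 of 10 members passed in either, beside 0% of all genes. At an unadjusted p under 0.05 it was also 0 of 10 in both, beside 7.15% of genes between sources and 4.34% between strains, and DESeq2 called 0 members. Between sources, normal and mild samples had a common source term in this fit. For Psmb9 the interval ran from -0.71 to 1.69 between sources and from -1.55 to 1.23 between strains, wide enough to hold a difference as large as the high-grade effect.

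The rest of the class I pathway was read from lists of its parts. Over 14 class I heavy chain and class I-like genes tested, the median difference in mild dysplasia was -1.68. Of these, 10 were lower, beside 7.24% of all genes that were. They included H2-T10 (-3.07), H2-M2 (-3.21), H2-T22 (-2.70), H2-Q7 (-2.43) and H2-Q6 (-1.60). H2 genes are near-identical copies, and A/J and SWR/J carry other H2 haplotypes than the reference mouse, so reads can be shared or lost between them and their values are uncertain. The member H2-T23 is an H2 gene too, so this holds for it as well. H2-D1, a classical heavy chain, was lower in A/J (-1.22, adjusted p = 0.0075), which touches the same limit. With the Ptprc or the thymocyte covariate, 0 of these 14 passed in mild dysplasia.

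Of 8 loading chaperones and trimming enzymes outside the members, 1 was higher in mild dysplasia: Pdia3, the oxidoreductase partner of tapasin, at 0.64 (adjusted p = 0.0467), with a list median of 0.40, beside 5.22% of all genes that were higher. It did not pass with the Ptprc or the thymocyte covariate, where 0 of the 8 did. Of 6 standard catalytic subunits and proteasome activators, 1 was lower: Psme2, a subunit of the interferon-induced PA28 cap, at -1.02 (adjusted p = 0.0214), with a list median of -0.46. Of 11 other subunits of the proteasome core, 1 was lower: Psmb3 at -0.84 (adjusted p = 0.043), with a list median of -0.62. Counts of 1 of 6 and 1 of 11 are near the 7.24% of all genes that were lower. With the Ptprc covariate, Psme2 remained the 1 of 6, and 4 of 11 core subunits were lower (Psma7, Psmb1, Psmb3 and Psmb4, list median -1.01). With the thymocyte covariate 1 of 6 and 1 of 11 were lower, Psme2 and Psmb3. The 7.24% belongs to the fit without these covariates, and fewer of all genes passed with them, as given above. None of these lists held a gene that passed in high-grade lesions, where their medians were 0.13, 0.07 and 0.04.

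Over 12 interferon gamma induced genes tested, the median difference between mild dysplasia and normal samples was -1.91. Of these, 9 were lower in mild dysplasia, beside 7.24% of all genes that were. They included the GTPases Igtp (-3.19), Iigp1 (-2.38) and Irgm1 (-1.09) and the T cell attracting chemokines Cxcl9 (-5.98) and Cxcl10 (-4.82). Of 14 regulators tested, 4 were lower in mild dysplasia. Among these were Socs1 (-3.99), an inhibitor of cytokine signalling, Ifngr1 (-1.15), a chain of the interferon gamma receptor, and Rfxank (-0.50), a subunit of the factor that binds the X box. With the Ptprc covariate 3 of 12 interferon induced genes and 0 of 14 regulators were lower, and with the thymocyte covariate 1 and 0 were. Fewer of all genes passed with these covariates than the 7.24% of the fit without them, as given above. In high-grade lesions 0 genes of either list passed, with medians of -0.85 and -0.32.

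The members rose and fell together across samples, apart from Tapbp and Erap1. Correlated with the mean of the other 9 over the 25 samples, Psmb9 gave r = 0.95 and Psmb8 r = 0.94, while Tapbp gave 0.50 and Erap1 0.43. After removing histology, strain, source and TIN the values were 0.92, 0.91, -0.03 and 0.36. The genes outside the list whose levels most resembled the members' mean z-score were H2-Q7 and Limd2 (r = 0.96 for both), Cd96 and Ptprcap (0.95), Arhgap15, Il16, Selplg and Spn (0.94), and H2-Oa and Il2rg (0.94 and 0.93). Cd96, Ptprcap, Selplg, Spn and Il2rg are surface or signalling genes of leukocytes. After the same adjustment, the most similar included Cd48 (0.93), Il2rg, H2-Oa, Tspan32, Gpr65, Limd2 and Il16 (0.92), and Ptpn6 and Coro1a (0.91). These correlations describe points that share libraries, depth and cell makeup, and Ptprc itself ranked 69 by level (r = 0.90) and 98 after adjustment.

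**Figure D4:**
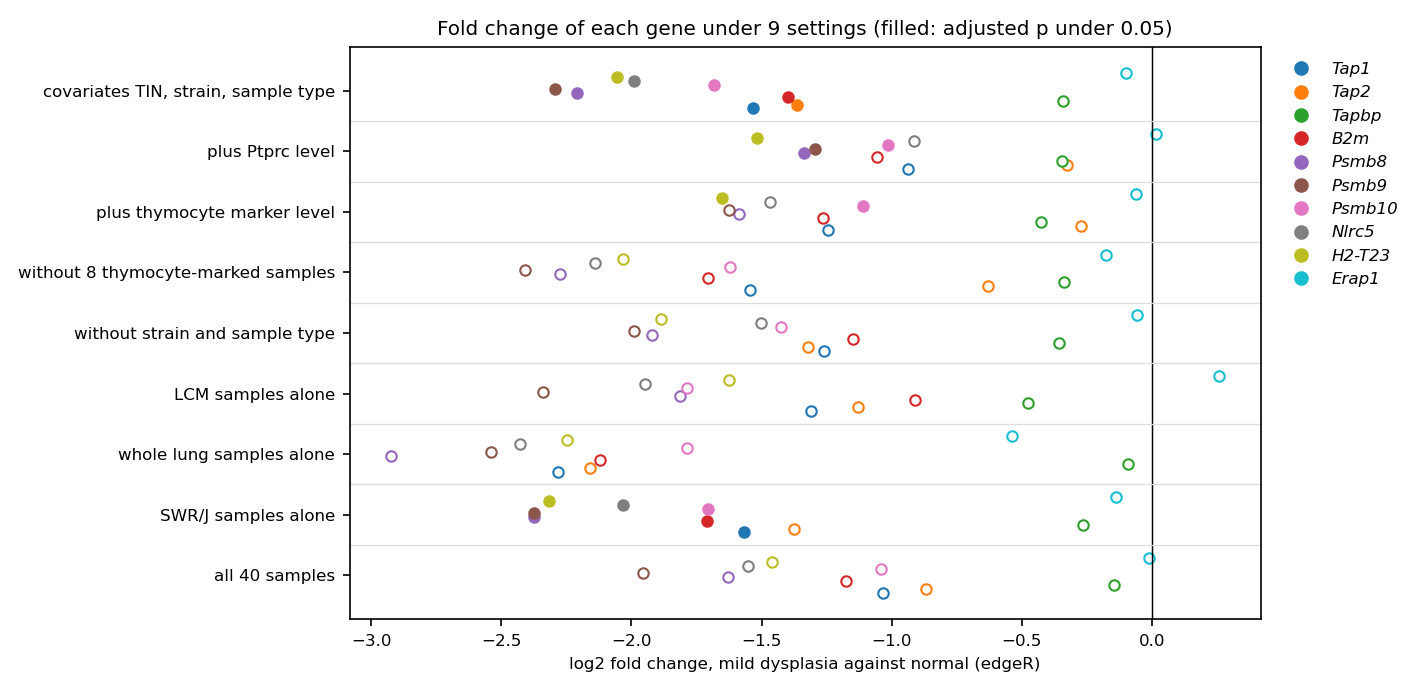
Fitted differences of the 10 genes in mild dysplasia against normal (log2, horizontal axis) under 9 of the fits, with filled points for genes that passed the adjusted threshold. Psmb9, Psmb8, Psmb10 and H2-T23 stay at -1.02 or lower in each of them, whereas Tap2 lies at -0.27 with the thymocyte covariate.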

How the data were processed

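RNA was sequenced as unstranded single-end reads from female A/J and SWR/J mice. The authors trimmed reads with Trimmomatic, aligned them with STAR to mm9 and deposited gene-level expected counts from RSEM with Ensembl identifiers, in the versions that the supplement of the study lists. The deposited expected counts were rounded, and the values of the second Psmb9 identifier were added to the first. Genes were kept by the study's rule on TMM log2 CPM, which left 15626 of 37309. edgeR 4.0.16 quasi-likelihood fits under R 4.3.3 used all 25 samples, with histology, median TIN (a measure of RNA integrity), strain and source as terms, and p-values were adjusted by Benjamini-Hochberg over all genes tested, with a threshold of 0.05. Fold changes are log2 values from these fits. The fit was tested on simulated data. No identical or near-identical libraries were found. All 10 members were named in each comparison, and from each list at most 5 genes past the threshold, by smallest p. The members and the lists were chosen with earlier results of these data known. Alternatives used DESeq2 1.42.0, limma-voom 3.58.1, RLE factors, other filters, other covariates, subsets of samples, and each of the 25 samples left out in turn. The fits with the thymocyte markers, the subset without the samples they mark, and the separate Psmb9 rows were chosen after seeing the data. The 15 samples that did not pass the quality control entered only the fit of all 40. 1 gene of the lists is not reported here.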

Additional observations from a re-analysis of the deposited data

How the results depend on the processing

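In mild dysplasia against normal, 8 members passed, and 6 to 9 did with RLE factors, DESeq2, limma-voom, other gene filters, no TIN covariate, SWR/J samples alone, without the 3 samples of median TIN under 30, or without the 2 samples whose description gives another histology than their label. The count was 4 with the Ptprc covariate, 2 with the thymocyte covariate, and 0 without strain and source covariates, with all 40 samples, in LCM alone, in whole lung alone and without the thymocyte-marked samples, and the cause was not tested. The number of all genes that passed also fell with either covariate. It was 0 in LCM alone, in whole lung alone and without the thymocyte-marked samples. Leaving out 1 sample gave 5 to 8 members, and 5 without the normal LCM sample 2B (normal replicate 3) or the mild whole lung sample 74 (mild replicate 4), where Tap2, B2m and Nlrc5 were lost. Tap1, Psmb8, Psmb9, Psmb10 and H2-T23 passed with each sample left out, whereas at least 1 of Tap2, B2m and Nlrc5 was lost without the normal samples 2B, 70 or 72, any of the 5 mild samples or the high-grade sample 40. Between strains, the B2m estimate was -0.59 without sample 72, and without sample 40 those of Tap2, Psmb9 and Psmb10 were -0.17, -0.62 and -0.44. Tap2 was -0.85 there without sample 81. In high-grade lesions against normal, 0 members passed in each alternative run, DESeq2 included. Against mild dysplasia, DESeq2 gave 4, no TIN covariate 1 (Psmb10), and leaving out 1 sample 0 to 3. For source, 1 member passed except with the thymocyte covariate (2, Tap2 and Tapbp) and without thymocyte-marked samples (0). For strain, DESeq2 gave 2 and no TIN covariate 1 (Tap1), with 0 otherwise.

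Directions that turned were all among estimates that had not passed. Erap1 in mild dysplasia was 0.018 with the Ptprc covariate and 0.26 in LCM alone, and ran from -0.18 to 0.15 over the samples left out. Tap2 over the rank of grade was 0.046 with the Ptprc and 0.050 with the thymocyte covariate. Between sources, the Ptprc covariate gave 0.031 for Tap2, 0.12 for Psmb8, 0.20 for Psmb9, 0.19 for Psmb10 and 0.060 for Nlrc5. All 40 samples gave -0.050 for B2m and 0.043 for Erap1, and the second Psmb9 row alone gave 0.066. B2m ran from -0.0082 to 0.22 over the samples left out. Between strains, no TIN covariate gave 0.058 for Tap2, 0.12 for H2-T23 and 0.093 for Erap1. The Ptprc covariate gave 0.25 for Tap2, and all 40 samples gave 0.22 for Tapbp, 0.15 for Psmb10, 0.021 for Nlrc5 and 0.23 for H2-T23. Erap1 ran from -0.24 to 0.017 over the samples left out. No paired analysis was possible because the labels give the groups no shared replicate numbers. Depth limits Nlrc5 most, with a median of 125 expected counts a sample, and a prior count of 0.25 moved no group mean by more than its SD.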

Other observations

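RNA of tissues other than the airway varied widely between libraries. The summed thymocyte markers were highest in the normal samples 70 (1819 CPM, whole lung) and 2B (1334 CPM, LCM), followed by the high-grade LCM sample 40 (1120 CPM) and the normal whole lung sample 81 (863 CPM). Samples 5, 7c, 41 and 84 held 0 CPM. The markers of skeletal muscle summed to 0.53 to 5899 CPM over the whole lung samples and to 9.21 to 5864 CPM over the LCM samples.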
